A study of Mus musculus with 5 samples.

Results

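The tumour suppressor p53, its regulators and its known target genes were followed in mouse Neuro-2a (N2A) cells depleted of Upf1. The members were 34 gene symbols, and 33 of them matched 1 gene each in the deposited count table of 55573 genes. No gene in the table carried the symbol Tap53, so it was not analysed here. All 33 genes had at least 1 read, and 29 received an adjusted p-value among the 15191 genes tested. Plk2, Dram1, Eda2r and Trp73 received none, because their counts were too low.

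UPF1 is an RNA helicase at the centre of nonsense-mediated mRNA decay (NMD), the pathway that degrades mRNAs on which translation ends at a premature or otherwise unfavourable position. p53 is a transcription factor that is held low by the ubiquitin ligase MDM2 and its relative MDM4. When DNA damage, nucleolar stress or oncogene activity frees p53 from these inhibitors, it binds response elements in the DNA and induces genes for cell cycle arrest, DNA repair, metabolism and cell death. Several of its targets, MDM2 among them, act back on p53, so the pathway works as a feedback circuit.

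Both groups were N2A cells, a line derived from a mouse neuroblastoma, cultured and transfected alike. The siCtl group (n = 2, replicates 1 and 3) received 60 pmol of Silencer Negative Control #1 siRNA, and the siUpf1 group (n = 3, replicates 1 to 3) received the same amount of Upf1 siRNA. Polyadenylated RNA was sequenced as strand-specific libraries, with 20402205 to 27717594 reads assigned to genes per library. The comparison asked which mRNAs change in abundance when the central NMD factor is depleted. The study describes its protein blots of these transfected cells as independent experiments, but the labels do not say that each library came from a separate culture. If they did not, the p-values measure only the spread between these libraries, which may be technical. All results come from 1 cell line and 1 Upf1 siRNA, so effects of UPF1 loss and of that siRNA cannot be told apart.

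Upf1 itself checked the labels. In counts scaled to the library total (CPM), it stood at 206 and 209 in the siCtl libraries and at 98.8, 97.5 and 99.1 in the siUpf1 libraries, so the groups lay far apart. Its log2 fold change was -1.10 (SE 0.051, adjusted p = 7.09e-101, DESeq2), which left 46.8% of the control level. Of 12 neuroblastoma and neuronal markers, 8 were above 1 CPM in every library. The 12 markers summed to 1398 to 1422 CPM in siCtl and to 1675 to 1743 in siUpf1. The part of this shift in the results on p53 genes was not tested. Summed markers of other cell types were low. They reached at most 21.5 CPM for oligodendrocytes, 12.0 for fibroblasts, 8.91 for endothelium, 2.07 for astrocytes and 1.54 for immune cells, and Mog, Lum and Kdr had no read in any library. In bulk RNA, fewer cells of a kind and less RNA per cell cannot be told apart.

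Sequences of 2 kinds bear on the comparison, the siRNA that was transfected and the places in p53 pathway genes that it or p53 could recognise. The siRNA strands are given with their seed, bases 2 to 8, in capitals.
Sense strand: uCAAGGUUccugauaauua
Antisense strand: uAAUUAUCaggaaccuuga

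The DNA letters complementary to these seeds are AACCTTG for the sense strand and GATAATT for the antisense strand. They were searched on the mRNA strand of 1 representative 3′ untranslated region per gene (GENCODE M21, GRCm38.p6). Sites in 4 members were found, and each is printed with 8 bases on either side and the seed match in capitals.
Mdm4, antisense seed, chr1:132989406-132989428, minus strand: tcccagttGATAATTtcactatt
Tigar, antisense seed, chr6:127087539-127087561, minus strand: cttttgaaGATAATTgtatgatt
Zmat3, sense seed, chr3:32338056-32338078, minus strand: cggtctacAACCTTGcaatccca
Eda2r, sense seed, chrX:97337418-97337440, minus strand: ctcttagcAACCTTGccattgct

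Among members tested, 2 of 29 (6.9%) held the antisense match and 1 of 29 (3.45%) the sense match. The shares over all genes with a usable 3′ untranslated region were 7.72% and 9.88% of 12370. Mdm4 was lower and Tigar was higher in siUpf1, so the 2 members with the antisense match lay on opposite sides. Zmat3, the tested member with the sense match, was lower, with a log2 fold change of -0.23. Over all genes, the median log2 fold change was 0.00 with the antisense match and -0.02 without it, and -0.11 with the sense match and -0.01 without it. Of all genes with the antisense match, 265 were called higher and 262 lower. With the sense match, 264 were called higher and 460 lower. The part of the seeds in these changes was not tested. A match is a description of the letters and does not show that the siRNA acted there.

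The second search looked for the p53 response element in RefSeq promoter windows, 250 bases before to 50 bases after each start site (GRCm38.p6). The element was taken as a pair of p53 consensus decamers, 0 to 13 bases apart, with at most 1 mismatch in all and none in the decamers' cores. The pattern reads the same on both strands. It occurred in 137 of 32851 promoters (0.417%) and in 1 of the 34 promoters found for 27 members, that of Cdkn1a, the gene for the cell cycle inhibitor p21. The window at chr17:29090729-29091028, plus strand, is printed with the matching decamers in capitals because Cdkn1a is the best-known target of p53.
Cdkn1a promoter: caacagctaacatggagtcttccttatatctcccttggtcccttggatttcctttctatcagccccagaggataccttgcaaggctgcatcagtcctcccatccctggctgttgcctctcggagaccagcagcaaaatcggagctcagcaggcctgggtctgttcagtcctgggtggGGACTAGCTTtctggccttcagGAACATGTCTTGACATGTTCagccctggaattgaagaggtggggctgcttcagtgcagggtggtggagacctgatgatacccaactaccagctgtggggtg

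Capitals mark 3 decamers, which form 2 overlapping pairs. The first pair, chr17:29090906-29090937, had a 12-base gap and 0 mismatches. The second, chr17:29090928-29090947, had no gap and 1 mismatch. It begins 51 bases before the upstream start site of Cdkn1a, and 2841 bases before the downstream one. Zmat3, Trp53inp1, Perp, Rrm2b, Xpc and Ddb2 were not matched in the promoter table. No match in these short windows says nothing about p53 binding, since many response elements lie in introns or further upstream.

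Across the 29 members tested, 8 were higher and 12 were lower in siUpf1 than in siCtl at an adjusted p under 0.05 (DESeq2), and 9 were not called. These 20 calls are 69% of the members. Over all 15191 genes tested, 44.9% were called, 22% as higher and 22.9% as lower. The share called grew with read depth. When the mean normalised count had to reach 300, 18 of 25 members (72%) were called, beside 60.8% of 9190 genes. The median log2 fold change of the members was -0.07, beside -0.0024 for all genes, and the median size of the change, either way, was 0.30 beside 0.28. Genes of the pathway thus moved in both directions. With edgeR, 9 members were higher and 13 lower, where 54.6% of all genes were called. With the replicate number as a block, 4 were higher and 7 lower, and 31.1% of all genes were called. The normalised counts of the groups did not overlap for 24 of the 29 members tested, 10 higher and 14 lower. Of all genes tested, 69.4% did not overlap. This share also grew with read depth. At a mean normalised count of at least 300, 21 of 25 members and 7273 of 9190 genes did not overlap. An exact permutation test of 2 against 3 libraries cannot give a p below 0.1, so single-gene statements rest on the models fitted across all genes.

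**Figure D1:**
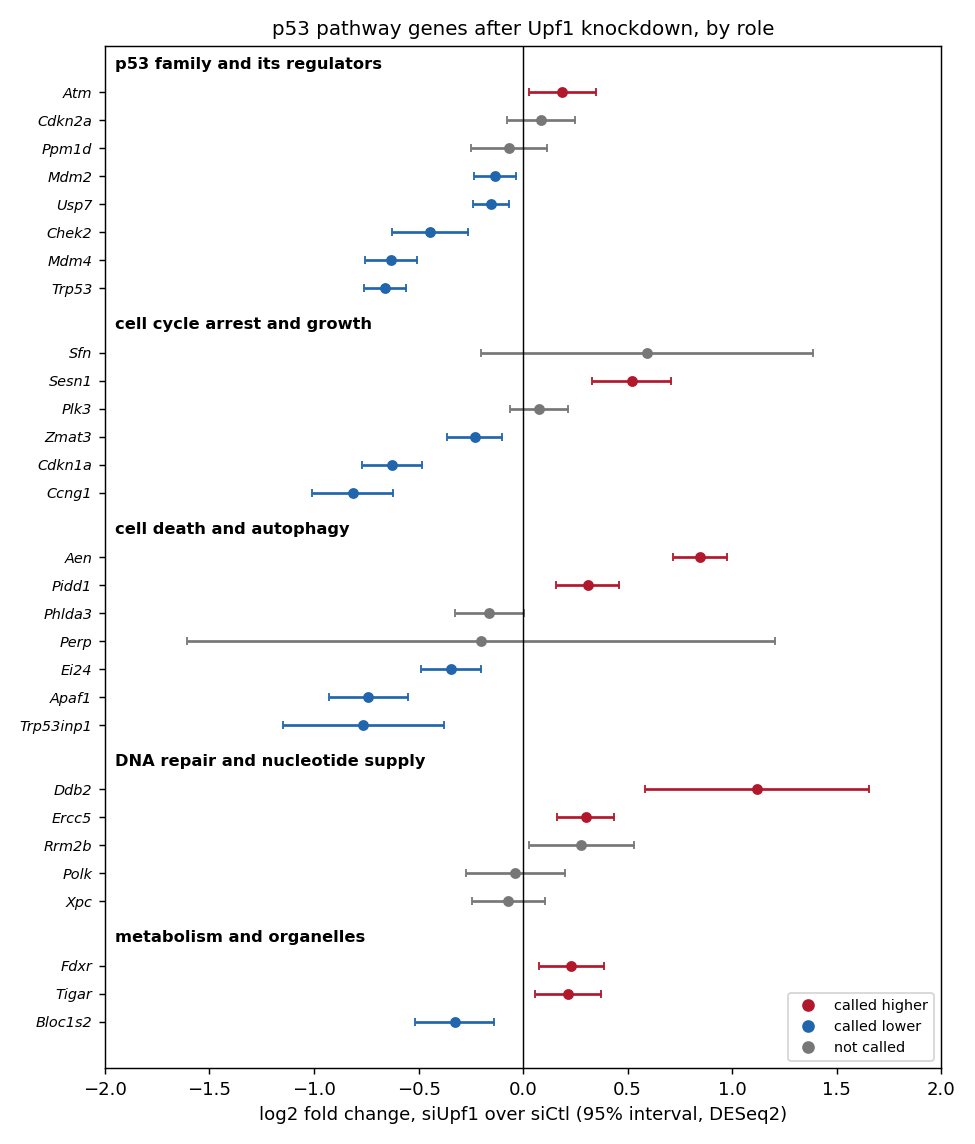
Log2 fold change of siUpf1 over siCtl (horizontal axis) for the 29 members tested, grouped by role, with 95% intervals from DESeq2 as whiskers and colour marking the call. Most regulators of p53 lie left of 0, and the 2 called DNA repair genes lie right of 0. The other groups hold genes on both sides.

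Among p53 and its regulators, 5 of 8 members tested fell, 1 rose and 2 were not called. These calls were 75% of the group. The share was 44.9% over all genes tested and 60.8% over well-counted genes, with a mean normalised count of at least 300. Trp53 (chr11:69580359-69591873, plus strand) had 5059 and 5221 normalised counts in the siCtl libraries and 3272, 3345 and 3150 in the siUpf1 libraries. The siUpf1 libraries all lay below both controls, with a gap many times the spread within either group. The mean fell from 5140 ± 115 (SD, n = 2) to 3256 ± 98.3 (SD, n = 3), 63.3% of control, and the log2 fold change was -0.66 (SE 0.051, adjusted p = 1.25e-36). Reads that fit both Trp53 and its pseudogene Trp53-ps, which held 14 to 29 reads per library, could have been left uncounted or assigned wrongly. GENCODE M21 annotated no NMD transcript for Trp53.

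Mdm4 and Mdm2, the main inhibitors of p53, moved by different amounts. Mdm4 (chr1:132959484-133030561, minus strand) had 3403 and 3178 normalised counts in siCtl and 2251, 2007 and 2099 in siUpf1. The groups did not overlap, and the log2 fold change was -0.63 (SE 0.064, adjusted p = 6.63e-22). Of its annotated transcripts, 2 were NMD transcripts. Mdm2 (chr10:117688875-117710758, minus strand) had 3825 and 3881 normalised counts in siCtl and 3580, 3525 and 3433 in siUpf1. Here too the groups stood apart, but the siUpf1 mean remained at 91.2% of control, a log2 fold change of -0.13 (SE 0.051, adjusted p = 0.0209). Single libraries decided that call, since the adjusted p was 0.110 without siCtl replicate 1, 0.193 without siCtl replicate 3 and 0.126 without siUpf1 replicate 3. The 95% interval for Mdm4, -0.76 to -0.51, lay wholly below that for Mdm2, -0.23 to -0.03. The difference between both genes was not tested further.

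Other regulators followed. Chek2, a kinase that relays DNA damage to p53, fell from a mean of 841 ± 16.2 (SD, n = 2) to 617 ± 13.2 (SD, n = 3) normalised counts, a log2 fold change of -0.45 (adjusted p = 6.50e-06). Usp7, the deubiquitinase that stabilises MDM2 and p53, fell by 0.15 on the log2 scale (adjusted p = 0.00165), a call that was lost without siCtl replicate 3 (adjusted p = 0.104). Atm, the kinase upstream of Chek2, was the only regulator to rise, by 0.19 (adjusted p = 0.0483). That value sits at the threshold, and the call was lost on leaving out siCtl replicate 1, siCtl replicate 3, siUpf1 replicate 1 or siUpf1 replicate 3, with adjusted p = 0.0987 to 0.286. Cdkn2a encodes both p16 and p19ARF, an inhibitor of MDM2, and its counts do not separate these products. It had a log2 fold change of 0.09 with a 95% interval from -0.08 to 0.25 (adjusted p = 0.435). Ppm1d, the phosphatase that switches off ATM and p53 signalling, had -0.07 with an interval from -0.25 to 0.11 (adjusted p = 0.597). Trp73, a p53 paralogue, had 2 reads in siUpf1 replicate 3 and none in the other libraries.

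**Figure D2:**
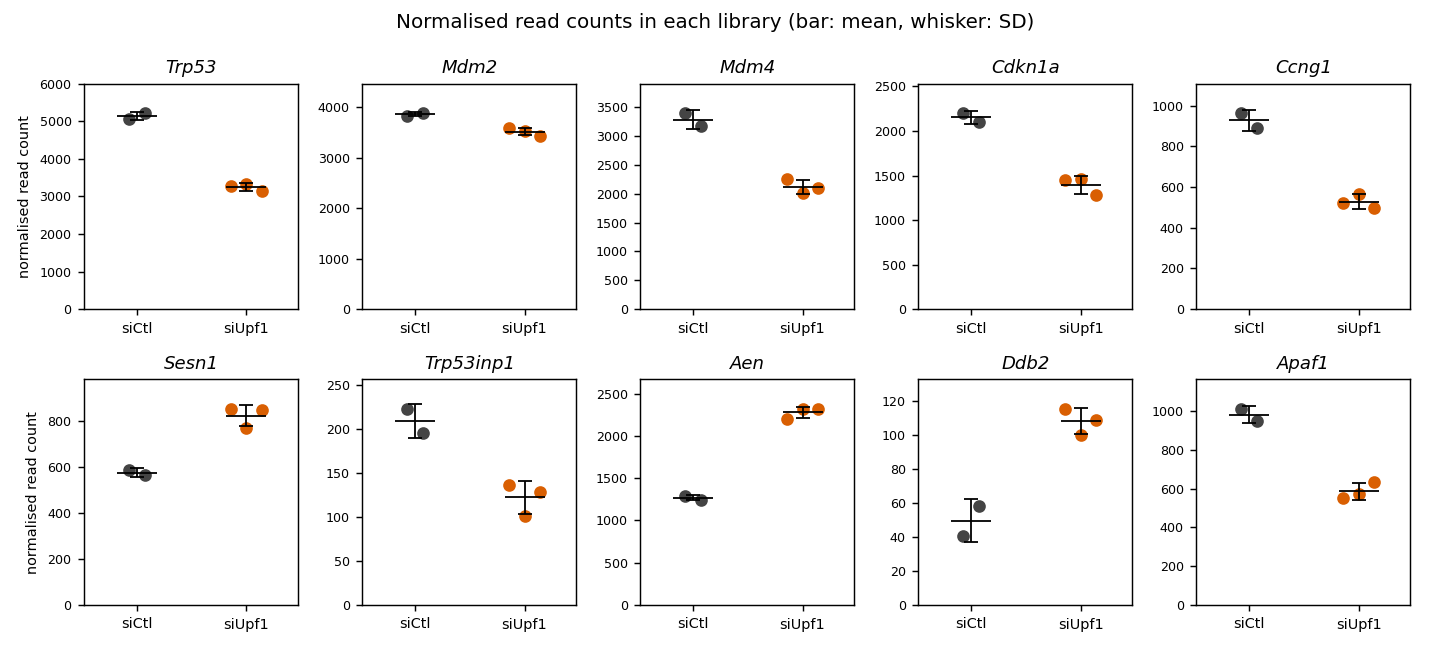
Normalised read counts (vertical axis, from 0) of 10 members in each siCtl (grey, n = 2) and siUpf1 (orange, n = 3) library, with the mean as a bar and the SD as whiskers. In all 10 panels the groups are separate, from a wide gap for Trp53 and Aen to a narrow one for Mdm2.

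Of the genes for cell cycle arrest and growth control, 3 of 6 tested fell and 1 rose. The share called was 66.7%, beside 44.9% and 60.8% for all and for well-counted genes. Cdkn1a (chr17:29090976-29100727, plus strand) had 2201 and 2102 normalised counts in siCtl and 1447, 1458 and 1276 in siUpf1. All siUpf1 libraries lay below the controls. The log2 fold change was -0.63 (SE 0.073, adjusted p = 1.65e-16), so the siUpf1 mean was 64.8% of control, close to the 63.3% left of Trp53 and the 64.4% left of Mdm4. Ccng1 (chr11:40748552-40755311, minus strand) encodes cyclin G1, which links a phosphatase to MDM2. It had 964 and 892 normalised counts in siCtl and 520, 567 and 498 in siUpf1, again with no overlap. Its log2 fold change of -0.82 (SE 0.098, adjusted p = 1.65e-15) was the lowest among the members tested.

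Sesn1 (chr10:41809935-41908424, plus strand) went the other way. This sestrin, which restrains the growth kinase complex mTORC1, had 588 and 562 normalised counts in siCtl and 852, 768 and 847 in siUpf1. Every siUpf1 library exceeded both controls, and the log2 fold change was 0.52 (SE 0.096, adjusted p = 4.29e-07). Its paralogue Sesn2, which was not a member, had 4582 and 4765 normalised counts in siCtl and 2310, 2545 and 2438 in siUpf1. Sesn2 fell by 0.94 on the log2 scale (SE 0.057, adjusted p = 3.02e-60), so these sestrins moved in opposite directions with separate intervals.

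Zmat3, an RNA-binding zinc finger protein, fell by 0.23 on the log2 scale (adjusted p = 0.00182), and the call was lost without siCtl replicate 1 (adjusted p = 0.0758). Plk3, a polo-like kinase, was nearly level at 0.08, with a 95% interval from -0.06 to 0.21 (adjusted p = 0.397). Sfn, which encodes stratifin, a G2 checkpoint protein, was sparse. Its means were 25.9 ± 1.93 (SD, n = 2) and 39.2 ± 3.51 (SD, n = 3) normalised counts. The groups did not overlap, yet its log2 fold change of 0.59 had an interval from -0.20 to 1.39 (adjusted p = 0.239). Plk2, another polo-like kinase, had 8 and 15 reads in siCtl and 4 in each siUpf1 library, and it was not tested.

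Genes for cell death and autophagy split, with 2 of 7 tested higher and 3 lower. The share called was 71.4%, beside 44.9% and 60.8% for all and for well-counted genes. Aen (chr7:78895854-78911209, plus strand), an exonuclease that promotes apoptosis, had 1287 and 1244 normalised counts in siCtl and 2202, 2321 and 2313 in siUpf1. The groups stood far apart. The siUpf1 mean was 180.0% of control, with a log2 fold change of 0.85 (SE 0.065, adjusted p = 1.20e-36). Apaf1 (chr10:90989311-91082770, minus strand), the scaffold of the apoptosome that activates caspase-9, had 1013 and 951 normalised counts in siCtl and 553, 572 and 636 in siUpf1. It fell in every siUpf1 library, with a log2 fold change of -0.74 (SE 0.096, adjusted p = 1.76e-13) and 59.8% of the control mean. Trp53inp1 (chr4:11156431-11174379, plus strand), a stress protein of p53 signalling and autophagy, had 223 and 195 normalised counts in siCtl and 137, 102 and 128 in siUpf1. The groups did not overlap and its log2 fold change was -0.76 (SE 0.20, adjusted p = 0.000367), but without siCtl replicate 1 the adjusted p was 0.0548.

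Pidd1, the core of the PIDDosome that activates caspase-2, rose from 968 ± 3.92 (SD, n = 2) to 1199 ± 5.34 (SD, n = 3) normalised counts, a log2 fold change of 0.31 (adjusted p = 0.000206). Ei24, a membrane protein of the endoplasmic reticulum with a role in autophagy, fell by 0.34 (adjusted p = 1.51e-05). Phlda3, which competes with Akt for membrane lipids, was lower in each siUpf1 library than in the controls but was not called. Its log2 fold change was -0.16, with an interval from -0.33 to 0.00 (adjusted p = 0.108), and edgeR gave an adjusted p of 0.0452. Perp, a membrane protein of desmosomes, had means of 13.2 and 11.5 normalised counts and overlapping groups, and a change of up to 1.20 upwards or 1.61 downwards on the log2 scale lay within its interval (adjusted p = 0.852). Dram1, a lysosomal protein, had 2 to 8 reads per library. Eda2r, a receptor of the tumour necrosis factor family, had 1 read in all.

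In DNA repair and nucleotide supply, 2 of 5 members tested rose and 0 fell. The share called, 40%, lay below the 44.9% and 60.8% for all and for well-counted genes. Ddb2 (chr2:91211572-91236982, minus strand), which recognises ultraviolet damage, had 40.9 and 58.5 normalised counts in siCtl and 116, 100.4 and 109 in siUpf1. It was scarce, but the groups did not overlap, and at 218% of control it had the highest log2 fold change among the members tested, 1.12 (SE 0.27, adjusted p = 0.000159). Without single libraries that value ranged from 0.89 to 1.41, and it was called each time. Ercc5, the XPG endonuclease that cuts beside DNA damage, rose by 0.30 (SE 0.069, adjusted p = 6.15e-05). Rrm2b, the p53-inducible subunit of ribonucleotide reductase, had a log2 fold change of 0.28 with an interval from 0.03 to 0.53. It missed the threshold after adjustment (adjusted p = 0.0638), while edgeR gave 0.0157. Xpc, a damage sensor, had -0.07 with an interval from -0.24 to 0.11 (adjusted p = 0.568). Polk, a translesion polymerase, had -0.04 with an interval from -0.27 to 0.20 (adjusted p = 0.836), and both genes had overlapping groups.

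Of the 3 members linked to metabolism and organelles, 2 rose and 1 fell. Over all and over well-counted genes, 44.9% and 60.8% were called. Tigar, a phosphatase that lowers glycolytic flux, rose by 0.22 on the log2 scale (adjusted p = 0.0181). Fdxr, a reductase that passes electrons to mitochondrial iron-sulphur enzymes, rose by 0.23 (adjusted p = 0.00985). Both calls depended on single libraries. Without siCtl replicate 1 the adjusted p was 0.0686 for Tigar and 0.0897 for Fdxr, and without siCtl replicate 3 it was 0.242 and 0.136. Leaving out siUpf1 replicate 2 gave 0.121 for Tigar, and leaving out siUpf1 replicate 1 gave 0.059 for Fdxr. Bloc1s2, a subunit of complexes that position lysosomes, fell by 0.33 (adjusted p = 0.0021), and without siCtl replicate 1 the adjusted p was 0.062. Its pseudogene Bloc1s2-ps held at most 3 reads in any library.

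Levels can be compared between genes only per length, so counts were also expressed as reads per kilobase of exon, scaled to the library total (RPKM). On that scale Trp53 was the most abundant member in siCtl, with a mean level of 50.4, next to Usp7 with 46.8. In siUpf1 the order changed, since Usp7 stood at 42.7 and Cdkn2a at 35.6, both above the Trp53 level of 32.4. The Mdm2 level was 30.0 in siCtl and 27.8 in siUpf1, while the Mdm4 level was 8.81 and 5.76. Aen passed Ccng1, as its level moved from 8.65 to 15.8 and that of Ccng1 from 10.5 to 6.05. The lowest levels among members tested were those of Ddb2, Sfn and Perp, at 0.72, 0.636 and 0.268 in siCtl. These values rest on the union of annotated exons, which overstates the length of genes with many rare isoforms.

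**Figure D3:**
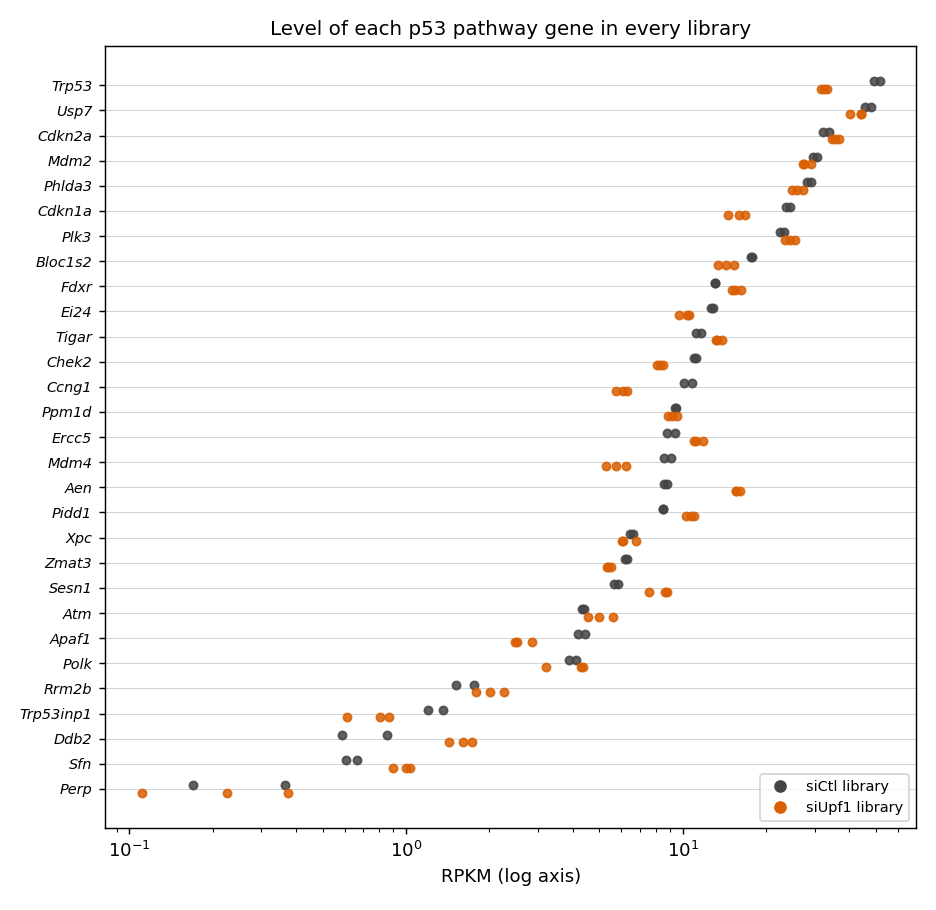
Level of each member tested in every library, in RPKM (horizontal log axis), ordered by the siCtl mean, with siCtl libraries in grey (n = 2) and siUpf1 libraries in orange (n = 3). Trp53 leads in siCtl at 50.4, and the members span down to Perp at 0.268.

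Annotated NMD transcripts occurred among members of both directions. GENCODE M21 gave at least 1 such transcript for 9 of 29 members tested (31%), beside 28.4% of 12741 protein-coding genes tested. Of these 9, 2 were higher (Tigar and Pidd1), 4 were lower (Mdm2, Mdm4, Chek2 and Usp7) and 3 were not called (Rrm2b, Xpc and Polk). Among the other 20 members, 6 were higher and 8 were lower. Over all protein-coding genes, 838 of 3618 with an NMD transcript were higher and 1058 were lower. Of the protein-coding genes without one, 2287 were higher and 2333 were lower. A gene-level count adds all isoforms, so a rise of a minor NMD isoform within a gene could not be seen here. The representative 3′ untranslated regions, a feature that can also attract UPF1, had a median length of 339 bases in the 8 members that rose and 1332 bases in the 12 that fell. The ranges were 74 to 3793 and 423 to 6625 bases, so they overlapped widely, and all protein-coding genes tested had a median of 964 bases. That median was not split by direction of change, so whether the difference is particular to these members was not tested.

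Genes around the members came from 3 lists chosen by function. Of 31 further p53 target genes tested, 4 were higher and 14 were lower, 58.1% in all, with a median log2 fold change of -0.22. Over all genes tested 44.9% were called, and 60.8% of those whose mean normalised count reached 300. Cd82, a tetraspanin that limits cell motility, had 226 and 224 normalised counts in siCtl and 66.7, 67.8 and 64.2 in siUpf1. The groups stood far apart, with a log2 fold change of -1.77 (SE 0.21, adjusted p = 4.79e-16). The highest values were those of Trp53i11 at 0.73 (adjusted p = 9.74e-21), Gls2, the p53-inducible glutaminase, at 0.60 (adjusted p = 1.93e-10) and Ccng2, a relative of Ccng1, at 0.39 (adjusted p = 0.0416). The call of Ccng2 was lost on leaving out any of the 5 libraries, with adjusted p = 0.0974 to 0.335.

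The second list held DNA damage checkpoint genes, only some of which act upstream of p53. Of 25 tested, 4 were higher and 14 were lower (72%, beside 44.9% and 60.8% for all and for well-counted genes), with a median log2 fold change of -0.15. Nbn, a subunit of the complex that activates ATM, fell by 0.84 (SE 0.11, adjusted p = 5.36e-14). Cdc25c, the phosphatase that starts mitosis, fell by 0.72 (adjusted p = 5.04e-10), and H2afx, the histone that marks DNA breaks, by 0.68 (adjusted p = 7.66e-13). Bard1, the partner of BRCA1, rose by 0.47 (adjusted p = 0.000165), while Brca1 itself fell by 0.15 (SE 0.060, adjusted p = 0.0285). Whether the Brca1 call held without single libraries was not examined. Brca2 rose by 0.33 (adjusted p = 0.0134) and the ubiquitin ligase Rnf168 by 0.28 (adjusted p = 0.00129). Without siUpf1 replicate 1, siCtl replicate 1 or siCtl replicate 3 the adjusted p of Brca2 was 0.178, 0.169 or 0.0727, and without siCtl replicate 3 that of Rnf168 was 0.152.

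Of 27 cofactors and modifiers of p53 tested, 4 were higher and 13 were lower (63%, beside 44.9% and 60.8%), with a median log2 fold change of -0.17. Sirt1, a deacetylase of p53, had 1497 and 1468 normalised counts in siCtl and 932, 871 and 980 in siUpf1. It fell by 0.67 (SE 0.079, adjusted p = 1.74e-16), with no overlap between groups. Npm1, a nucleolar protein that binds ARF and MDM2, fell by 0.58 (adjusted p = 1.38e-38). Rpl5, a ribosomal protein that inhibits MDM2 when ribosome assembly fails, fell by 0.43 (adjusted p = 1.04e-24), and its partner Rpl11 by 0.21. Npm1 and the ribosomal protein genes have many processed pseudogenes, so their counts are uncertain where reads fit several places. The genes with the highest values were Hipk2, a kinase of p53, at 0.42 (adjusted p = 7.23e-05), the acetyltransferase Kat5 at 0.20 (adjusted p = 0.0201) and Trp53bp2, a p53-binding protein, at 0.16 (adjusted p = 0.00689). The call of Kat5 was lost without siCtl replicate 1 (adjusted p = 0.191), siCtl replicate 3 (0.126), siUpf1 replicate 1 (0.0795) or siUpf1 replicate 3 (0.107). For Trp53bp2 it was lost without siCtl replicate 3 (0.217) or siUpf1 replicate 3 (0.0605).

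**Figure D4:**
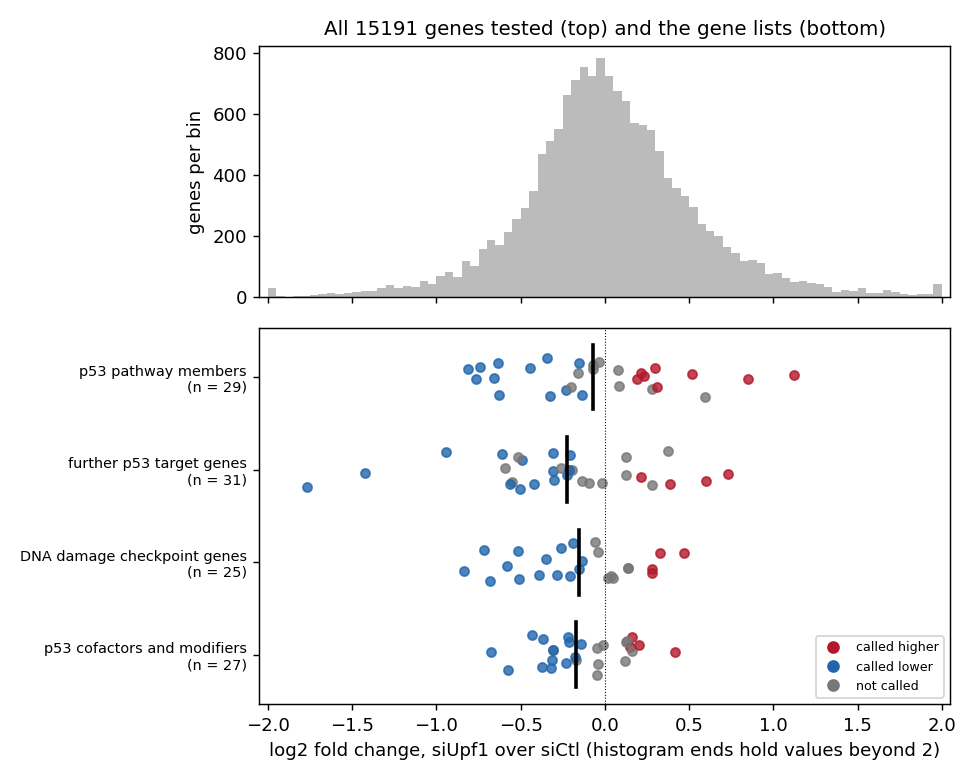
Top: number of genes per bin of log2 fold change (siUpf1 over siCtl) for all 15191 genes tested. Bottom: each tested gene of the members and of the 3 further lists on the same axis, coloured by call, with the list's median as a black bar, which lies between -0.22 and -0.07.

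Within single siUpf1 libraries, the median log2 ratio of the members to the siCtl mean was -0.11, -0.08 and -0.02 for replicates 1, 2 and 3, and over all genes it was between -0.0078 and -0.0048. Of the 9 members called with a log2 change of at least 0.5 in size, 8 were called under each of 12 alternatives and Trp53inp1 under 10. Shrunken fold changes, 1 of these 12, reused the adjusted p-values of the main fit, so they could not change a call. Sfn, whose change was also that large, was called under 0. Of the 11 members called with smaller changes, Chek2, Ei24 and Ercc5 were called under all 12. The other calls were lost under some of them, as Atm was called under 5, Mdm2 under 7, Tigar and Fdxr under 8, Zmat3, Bloc1s2 and Usp7 under 10, and Pidd1 under 11 of the 12.

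**Figure D5:**
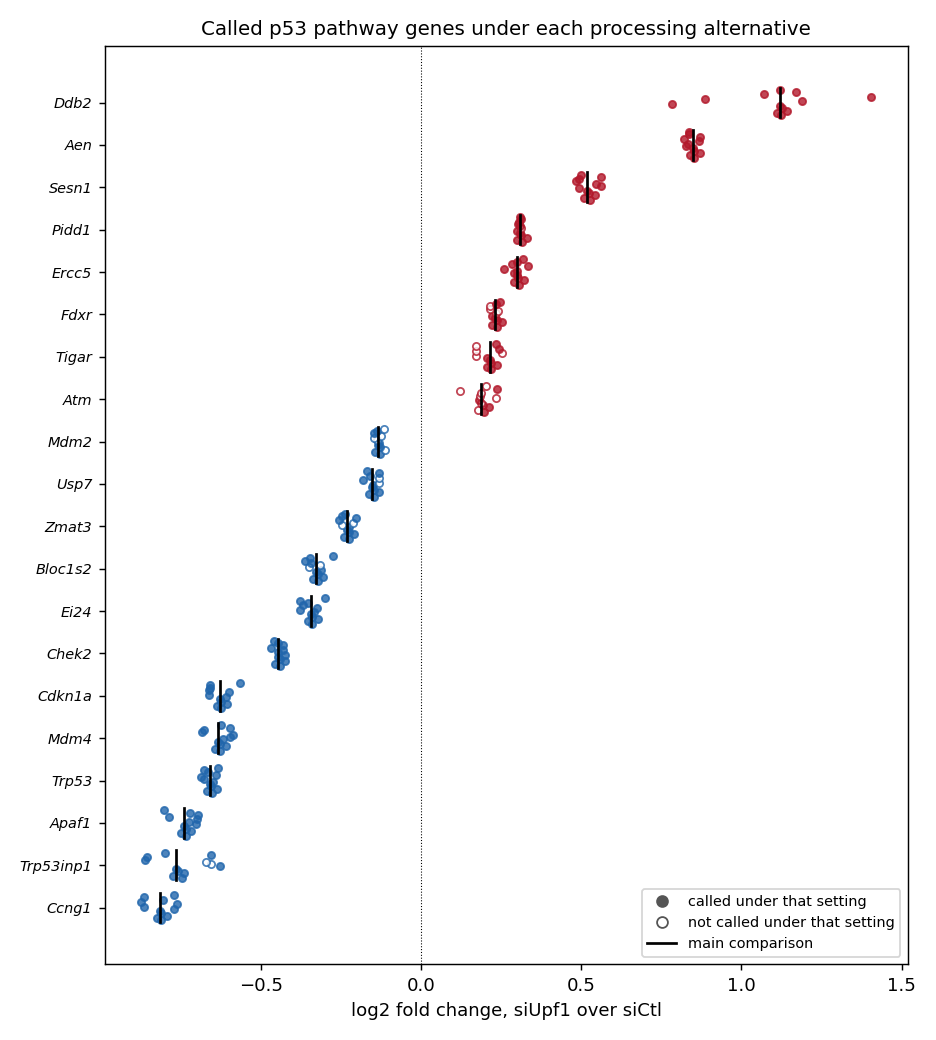
Log2 fold change of the 20 called members (horizontal axis) under each of 12 processing alternatives, as filled points where the gene was called and open points where it was not, with the reported value as a black bar. Every point of a gene lies on the same side of 0, and open points occur mostly for Atm, Mdm2, Tigar and Fdxr. The point for shrunken fold changes is filled by construction, as it reuses the adjusted p of the main fit.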

How the data were processed

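The authors deposited raw read counts per gene for 5 RNA-seq libraries. Per the study's methods and the submitters' processing notes, stranded reads were aligned with STAR 2.7.0f to GRCm38.p6 and counted over exons on the transcript strand with featureCounts (Subread 1.6.4). Members were matched by symbol. Here all 55573 genes were fitted with DESeq2 1.42.0 (R 4.3.3, median-of-ratios size factors, independent filtering, Benjamini-Hochberg over all genes tested, called at an adjusted p under 0.05). DESeq2 and this threshold were also those of the study. Normalised counts are counts divided by size factors, CPM are counts scaled to the total of assigned reads, and RPKM divides CPM by the union of a gene's exons in kilobases (GENCODE M21). The depth of 20402205 to 27717594 reads limits precision for genes with few reads. Alternatives were edgeR 4.0.16, other size factors and filters, shrunken fold changes, a replicate block and leaving out each library. Scripts were tested on simulated counts. The members, lists and tests were chosen with earlier results of these data known. Full values are given for Trp53, Mdm2, Mdm4, Cdkn1a and called members whose log2 change reached 0.5 and whose mean normalised count reached 50. From each list, the rule named the called genes with the 3 highest and 3 lowest changes whose mean normalised count reached 100. Most of these list genes are given without library values. Other genes named (Brca1, Rpl11) were chosen after their values were seen. Some named genes that this rule would give are not reported here.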

Additional observations from a re-analysis of the deposited data

How the results depend on the processing

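Of 343 recalculated values for the 29 members under 12 alternatives, 309 kept their direction and their side of the threshold, 29 lost their call, 3 gained one and 2 changed sign. Polk changed sign, to 0.070 with the replicate block and 0.069 without siUpf1 replicate 2 (range without single libraries -0.098 to 0.069), and was never called. Of 216 values for named genes of the lists, 194 kept both and 22 lost their call. Shrunken fold changes, among the 12 alternatives, reused the adjusted p-values of the main fit, so no call could change under them. Deviations of samples with the same replicate number correlated at -0.044 for replicate 1 and -0.056 for replicate 3 over 15191 genes. Both values use the same contrast between the 2 siCtl libraries. They cannot settle whether a replicate number marks a shared culture or day. With the replicate block, 4 members were higher and 7 lower, 7 further targets lower, 2 checkpoint genes higher and 7 lower, and 1 cofactor higher and 7 lower. Over all genes it gave 1957 higher and 1962 lower calls. By its construction the blocked fit has fewer residual degrees of freedom. In it siUpf1 replicate 2 stands alone in its block, so the group effect rests on replicates 1 and 3. The fit without siUpf1 replicate 2 uses the same libraries (Trp53 log2 fold change -0.679 in both). The 2 sign changes of Polk are therefore not separate results. No other cause of the lower counts was tested. Leaving out single libraries gave 5 to 7 members higher and 8 to 12 lower, 9 to 13 further targets lower, 2 to 4 checkpoint genes higher and 7 to 13 lower, with a checkpoint median of -0.20 to -0.11, and 1 to 5 cofactors higher. The 5 members higher came without either siCtl library, the 9 further targets without siUpf1 replicate 3, the 2 checkpoint genes higher and the 7 lower without siCtl replicate 3, and the 1 cofactor without siCtl replicate 3 or siUpf1 replicate 3. Checkpoint genes lower were 9 without siCtl replicate 1, 9 without siUpf1 replicate 2 and 8 without siUpf1 replicate 3. A group left with 1 library was assumed to vary like the other. Of all genes, edgeR called 4220 higher and 4172 lower. Other size factors shifted the all-gene median by at most 0.022 (log2).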
